A study of Homo sapiens with 46 samples.

Results

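Long intergenic noncoding RNA genes that carry only a serial number, LINC followed by digits, were followed through 4 subcellular fractions of 4 human cell types. A gene was taken as a member when its symbol had that form, when it was neither LINC01405 nor LINC00678, and when its counts summed to 100 or more over the libraries of at least 1 cell type. Of 373 LINC-named genes with any count, 232 were members, among 21162 Ensembl genes listed in at least 1 table. The members were chosen by their count totals alone, so their presence in a cell type is a description and not a test. The members nearest the limit were LINC01936 with 100 counts (hPSC) and LINC00621 with 102 (ectoderm), and the genes just outside it were LINC02474 with 98 (endoderm) and LINC02672 with 96 (mesoderm).

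A long noncoding RNA is a transcript with no long reading frame. Many such RNAs are spliced inefficiently, stay at the gene they were made from and are degraded by the nuclear exosome, while others are exported and can be bound by ribosomes. A few LINC-numbered genes were later found to code for a small protein, and some lie beside a regulator of development and are active in the same cells. The fraction in which such an RNA is found is therefore one of the first properties measured for it.

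The RNA came from H1 cells, an established line of human pluripotent stem cells (hPSC), and from ectoderm, endoderm and mesoderm cells derived from the same line. Endoderm was made with WNT3A and Activin A in RPMI medium. Mesoderm was made with Activin A followed by VEGF, BMP4 and bFGF, and ectoderm with the inhibitors A83-01, PNU-74654 and Dorsomorphin in medium with KOSR, collected on day 5. Cells were lysed with NP-40 over sucrose in buffers that held α-amanitin, which blocks RNA polymerase II. The pellet gave the nucleus sample, and the remaining nuclei were separated with urea and NP-40 into soluble nucleoplasm and insoluble chromatin. The nucleus values come from columns coded Nei, a code that the sources used here do not explain and that was read as nucleus because the other 3 fractions have codes of their own. The single mesoderm nucleoplasm column is numbered 3, while its sample is labelled repeat 1. There were 46 libraries in 16 groups: 15 groups had 3 libraries and mesoderm nucleoplasm had 1. The labels do not say that replicates came from separate cultures, so p-values measure the spread between these samples, which may be technical.

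Library totals ran from 4990408 to 21298678 counts. The cytoplasmic mRNAs behaved unequally between cell types. In hPSC, endoderm and mesoderm, ACTB averaged 4659, 6040 and 5974 CPM (counts scaled to the library total) in cytoplasm and 2330, 3126 and 3991 in the nucleus, whereas in ectoderm it averaged 3496 in cytoplasm and 3896 in the nucleus. Mitochondrial mRNAs took 8.09% to 16.1% of the nucleus libraries of hPSC, ectoderm and endoderm against 0.399% to 1.58% of their cytoplasm libraries, and 1.11% to 1.36% of mesoderm nucleus against 5.84% to 7.46% of mesoderm cytoplasm. The part of these differences in the results that follow was not tested. MALAT1, a nuclear lncRNA, was highest in nucleoplasm in each cell type, at 818.9 CPM (hPSC), 1986 (ectoderm), 875.2 (endoderm) and 897.4 (mesoderm). It was higher in cytoplasm than in the nucleus sample in hPSC (232.4 and 81.64 CPM) and ectoderm (1661 and 167.9), and lower or level in endoderm (126.0 and 130.4) and mesoderm (171.7 and 317.6). Other nuclear controls lay elsewhere. SNHG14 was highest on chromatin in each cell type, at 2374 CPM (hPSC), 358.8 (ectoderm), 1063 (endoderm) and 1828 (mesoderm). MEG3 was too, at 237.5 CPM in ectoderm and at most 2.308 elsewhere, and so was KCNQ1OT1 where listed. NEAT1 was highest in nucleoplasm in hPSC, in cytoplasm in ectoderm and on chromatin in mesoderm. MEG8 reached at most 0.577 CPM.

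Summed in cytoplasm, the cell type markers followed the labels in hPSC, ectoderm and endoderm, and less clearly in mesoderm. The 6 hPSC markers summed to between 4636 and 5310 CPM in hPSC cytoplasm, 335.5 to 472.2 in ectoderm, 2418 to 3082 in endoderm and 1274 to 1442 in mesoderm. Among them LIN28B alone was not highest in hPSC cytoplasm, with a mean of 148.3 CPM there and 192.9 in ectoderm cytoplasm. The 6 ectoderm markers summed to 653.4 to 750.4 CPM in ectoderm with SOX1 and HES5 not listed, and to at most 62.96 elsewhere. The 6 endoderm markers were all listed in endoderm, at 297.8 to 423.4 CPM, and reached 4.689 in mesoderm. The 6 mesoderm markers summed to 227.6 to 289.8 CPM in the endoderm libraries and 133.8 to 147.3 in the mesoderm libraries. GATA4 gave most of the endoderm sum, at a mean of 162.4 CPM, and the order of the sums rested on it. In mesoderm GATA4 and KDR were not listed, and TBXT averaged 0.132 CPM and HAND1 131.9, beside 4.94 and 58.1 in endoderm. KDR averaged 25.25 CPM in hPSC cytoplasm and 426.1 in the hPSC nucleus. The sum of the 4 markers of trophoblast and amnion was highest in mesoderm, at 299.3 to 335.1 CPM, then in endoderm at 167.0 to 207.0. TFAP2A gave most of the mesoderm sum, with a mean of 168.2 CPM beside 39.87 in endoderm. GATA3 and CDX2 were lower in mesoderm cytoplasm (123.2 and 0.552 CPM) than in endoderm cytoplasm (133.6 and 6.965). KRT7 was level in mesoderm and hPSC cytoplasm (27.39 and 27.32 CPM) and not listed in endoderm. Of the 3 neural crest markers, SOX10 was the one listed in ectoderm, and the list summed to 26.71 to 30.37 CPM there. In hPSC, where FOXD3 was the one listed, it summed to 28.66 to 32.18 CPM. The sums were 17.62 to 18.51 CPM in mesoderm and 5.473 to 6.455 in endoderm. Of the 3 markers of blood and endothelium, PECAM1 and TAL1 were listed in no table, and CDH5 reached at most 0.716 CPM in cytoplasm. In mesoderm CDH5 was higher in the other fractions, at 4.434 CPM in the nucleus, 3.375 in the single nucleoplasm library and 1.88 on chromatin. The part of other cells in the results was not tested, and in bulk samples more cells of a type and more RNA per cell cannot be told apart.

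The genomic setting of the members was varied. By Ensembl ID, 226 of the 232 matched GENCODE release 29, of which 188 had the type lincRNA and 44 carried another name there. Protein-coding genes overlapped 25 members, 16 on the same strand and 11 on the opposite strand, so that the word intergenic does not hold for these. The median member spanned 15808 bases and started 60488.5 bases from the nearest protein-coding start. A coding start lay within 1000 bases of 12 members, of which 8 ran in the divergent direction. The counting is not stated to use strand, so reads of an overlapping pair cannot be told apart. This touches LINC00649, which overlaps ATP5PO on the opposite strand, LINC01089, which overlaps RHOF, LINC00632, which overlaps CDR1, and LINC02210, which lies within the read-through gene LINC02210-CRHR1.

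RefSeq (GRCh38.p14) gave 191 promoters for 158 of the members, each from 250 bases before to 50 after the start. They were searched on both strands for the octamer core TTTGCAT, the GATA motif AGATAA and the TATA motif TATAAA. The octamer core stood in 6.28% of member promoters and 4.46% of all 35116 promoters of the table, GATA in 11.52% and 10.3%, and TATA in 12.04% and 11.53%. Member promoters held a median of 9 CpG dinucleotides, against 14 over all promoters. A match describes letters and is no evidence of a bound site. The promoters of 4 members described further on are shown, chosen for a known role or for their levels: LINC01108 is known from pluripotent cells, LINC00261 lies beside the endoderm regulator FOXA2, LINC01356 was lower in ectoderm and mesoderm cytoplasm than in hPSC and higher in endoderm, and LINC00910 was higher in ectoderm. Capitals mark the motif matches, on either strand. LINC01108 is at chr6:14285405-14285704, LINC00261 at chr20:22578593-22578892, LINC01356 at chr1:112850594-112850893 and LINC00910 at chr17:43388849-43389148, all on the minus strand and written 5′ to 3′ along the gene.
LINC01108: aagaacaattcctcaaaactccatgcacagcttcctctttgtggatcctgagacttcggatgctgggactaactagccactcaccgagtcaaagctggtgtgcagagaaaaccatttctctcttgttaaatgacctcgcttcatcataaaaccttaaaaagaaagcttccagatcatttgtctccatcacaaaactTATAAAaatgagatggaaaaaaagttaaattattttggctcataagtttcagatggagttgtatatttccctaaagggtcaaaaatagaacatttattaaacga
LINC00261: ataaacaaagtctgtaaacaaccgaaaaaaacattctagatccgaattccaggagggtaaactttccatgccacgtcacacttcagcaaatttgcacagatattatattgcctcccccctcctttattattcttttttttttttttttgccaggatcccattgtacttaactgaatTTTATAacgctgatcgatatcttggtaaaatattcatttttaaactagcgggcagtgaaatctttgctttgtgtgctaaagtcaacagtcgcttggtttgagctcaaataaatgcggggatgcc
LINC01356: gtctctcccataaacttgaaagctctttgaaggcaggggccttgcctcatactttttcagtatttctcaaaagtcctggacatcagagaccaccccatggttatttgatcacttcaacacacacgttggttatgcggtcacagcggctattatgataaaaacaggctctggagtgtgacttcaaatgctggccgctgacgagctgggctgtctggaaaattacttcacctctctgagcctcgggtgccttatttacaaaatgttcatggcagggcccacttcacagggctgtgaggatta
LINC00910: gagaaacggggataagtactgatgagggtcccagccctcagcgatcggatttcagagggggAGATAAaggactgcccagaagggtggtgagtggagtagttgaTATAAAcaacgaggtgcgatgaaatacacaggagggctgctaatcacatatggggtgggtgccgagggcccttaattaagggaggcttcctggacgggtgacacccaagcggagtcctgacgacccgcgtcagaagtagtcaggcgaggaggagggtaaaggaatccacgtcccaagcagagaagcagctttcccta
The LINC01108 and LINC00261 promoters each held a TATA match and 4 and 8 CpG dinucleotides. The LINC00910 promoter held a GATA and a TATA match with 13 CpG, and the LINC01356 promoter held none of the 3 motifs and 6 CpG.

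Most members were seen in few cell types. Ectoderm listed 171 members, hPSC 132, mesoderm 103 and endoderm 95, and in ectoderm 51 were listed there only, against 23 in hPSC, 14 in endoderm and 11 in mesoderm. Over the 4 tables, 99 members were listed in 1, 44 in 2, 42 in 3 and 47 in all 4. A total of 100 counts was reached in 1 table by 123 members and in all 4 by 37. Each table was built on a transcript assembly of its own, so cell type and assembly cannot be told apart, and a gene that is not listed can still be present.

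A few members made up much of the member counts, more so in hPSC and endoderm. The 10 highest members took 68.0% of the summed mean CPM of members in hPSC and 70.1% in endoderm, against 41.1% in ectoderm and 50.0% in mesoderm. The median member stood at 2.06 CPM in hPSC, 2.50 in endoderm, 2.73 in ectoderm and 3.48 in mesoderm. In hPSC, LINC02972 led with a mean of 394.3 CPM over all libraries, followed by LINC01194 (156.0), LINC01013 (150.2) and LINC00665 (125.9). By the authors' TPM, which allow for length, the order was LINC02972 (254.8 TPM), LINC01013 (110.5) and LINC00665 (77.9), with LINC01194 at 30.2. LINC01194 was listed in hPSC only. Its cytoplasm libraries held 187, 145 and 149 CPM and its nucleus libraries 99.8, 85.5 and 80.0, with no overlap (log2 change 0.791, SE 0.285, adjusted p = 0.0252). Its chromatin libraries held 242, 213 and 81.2 CPM, so that replicate 3 stood apart, and chromatin did not pass the test against cytoplasm (0.01, SE 0.282, adjusted p = 0.968).

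The other tables had other leading members. In ectoderm the highest were LINC01089 at 138.2 CPM and LINC02210 at 128.6, and LINC01833 and LINC02253, listed in ectoderm only, stood at 81.1 and 48.6. LINC01833 starts 2699 bases from SIX3, a forebrain and eye regulator that was itself at 191.5 CPM in ectoderm cytoplasm and listed in no other table. The LINC01833 libraries held 124.7, 128.5 and 136.7 CPM on ectoderm chromatin and 57.8, 54.0 and 63.0 in cytoplasm, with no overlap, a log2 change of 0.853 (SE 0.097, adjusted p = 5.43e-06). LINC02210 also stood higher on ectoderm chromatin (212.8 CPM ± 25.15, SD, n = 3) than in cytoplasm (102 ± 4.28), by 0.747 (SE 0.106, adjusted p = 3.92e-05). In endoderm LINC02700 led by CPM with 169.3 and LINC01356 by TPM with 177.5. The chromatin libraries of LINC02700 held 289.6, 390.5 and 284.0 CPM and its cytoplasm libraries 97.5, 89.3 and 72.1, with no overlap, a log2 change of 2.07 (SE 0.197, adjusted p = 2.13e-07). LINC02593, which starts 2912 bases from SAMD11, was listed in endoderm (139.8 CPM) and mesoderm (64.4) only. In mesoderm LINC01089 led by CPM at 82.0 and LINC02210 by TPM at 62.0. The 4 leading members of mesoderm by TPM lay between 52.7 and 62.0 TPM.

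**Figure D1:**
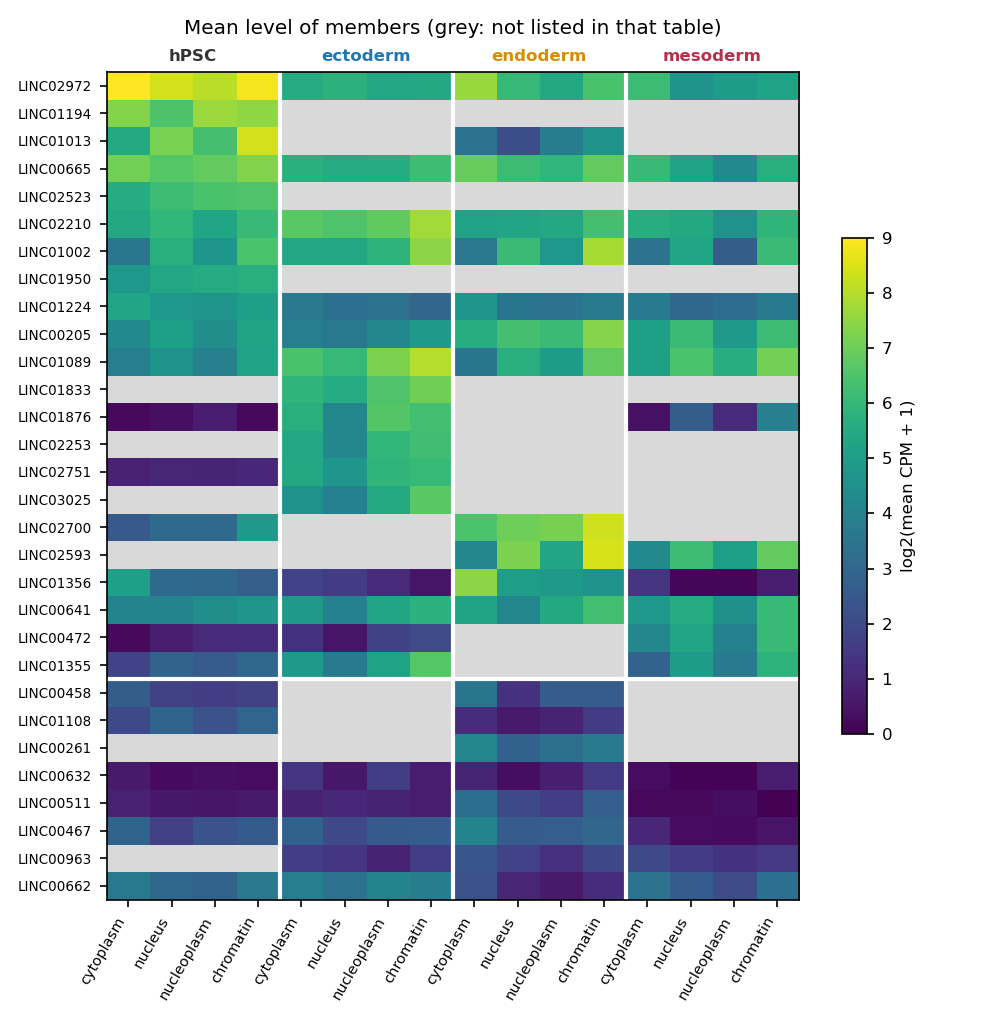
Mean level of the 10 highest members of each table and, below the white line, of further members named for a known role. Colour is log2(mean CPM + 1) for each cell type and fraction, and grey marks a gene not listed in that table. LINC01194 and LINC01833 fill 1 cell type each, while LINC02972 and LINC00665 are seen in all 4.

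Members named for a known role were mostly low. LINC00458, known from pluripotent cells, was listed in hPSC and endoderm. Its hPSC cytoplasm libraries held 5.64, 6.02 and 4.25 CPM, and its endoderm cytoplasm libraries 10.7, 9.97 and 10.7 CPM. The endoderm nucleus libraries held 0.537, 1.59 and 2.34 CPM, all below the cytoplasm libraries, and the log2 change from nucleus to cytoplasm was 2.14 (SE 0.312, adjusted p = 2.1e-05). LINC00458 was also higher in cytoplasm than in the nucleus in hPSC, by 1.12 (SE 0.370, adjusted p = 0.0162). Its level in endoderm against hPSC was not tested, since it was not listed in all 4 tables. LINC01108 held 821 counts over the hPSC libraries and 188 over the endoderm libraries, and was listed in neither of the other tables. In hPSC its balance was the opposite of that of LINC00458: the nucleus libraries held 6.45, 7.10 and 5.64 CPM and the cytoplasm libraries 3.60, 2.14 and 3.12, with no overlap, and it was lower in cytoplasm (-1.21, SE 0.292, adjusted p = 0.00237) and higher on chromatin than in cytoplasm (1.05, SE 0.292, adjusted p = 0.00623).

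LINC00261 was listed in endoderm only, where FOXA2 was also listed only. Its cytoplasm libraries held 20.8, 15.5 and 13.2 CPM, its nucleus libraries 2.82, 7.12 and 7.76, its nucleoplasm libraries 10.2, 7.58 and 9.0 and its chromatin libraries 14.4, 14.8 and 7.15. Cytoplasm lay above the nucleus with no overlap (0.822, SE 0.299, adjusted p = 0.0232), while chromatin and cytoplasm overlapped (-0.275, SE 0.291, adjusted p = 0.407). LINC00632, whose transcription gives rise to the circular RNA CDR1as in brain, reached 224 counts over the ectoderm libraries and 142 over the endoderm libraries. In ectoderm it averaged 2.17 CPM ± 0.826 (SD, n = 3) in nucleoplasm and 0.651 ± 0.274 on chromatin, a log2 change of -2.02 (SE 0.452, adjusted p = 0.00296) that was lost when only annotated isoforms were counted (-1.55, adjusted p = 0.146). LINC00963 stayed between 0.505 and 6.16 CPM in the libraries of the 3 tables that list it. LINC00461 and LINC01551, listed for neural cells, and LINC00998, LINC00493, LINC01420, LINC00116, LINC00961 and LINC00094, listed for a small protein, were not members.

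Members took a larger share of chromatin libraries than of any other fraction. In hPSC they made up 21.7 of 10000 counts ± 1.29 (SD, n = 3) on chromatin, 15.5 ± 1.47 in cytoplasm, 14.1 ± 0.796 in the nucleus and 13.02 ± 0.296 in nucleoplasm. In ectoderm chromatin held 27.2 ± 0.710 and cytoplasm 14.8 ± 1.04, in endoderm 21.0 ± 0.724 and 11.3 ± 0.415, and in mesoderm 13.6 ± 1.86 and 8.0 ± 0.400. In all 4 cell types the lowest chromatin library lay above the highest library of each other fraction. With 3 libraries against 3, an exact two-sided permutation test cannot go below 0.10. The order of chromatin over the other fractions was the same when mitochondrial counts were left out, with chromatin at 22.8, 27.9, 21.4 and 13.9 of 10000. Ectoderm nucleoplasm held 19.3 ± 0.720, above ectoderm cytoplasm, while nucleoplasm held the lowest mean share in hPSC, endoderm and mesoderm (5.14 of 10000 in the single mesoderm library). Single members took much of these counts, so the share need not describe the typical member. LINC02972 made up 30.7% to 35.04% of member counts in hPSC cytoplasm. On endoderm chromatin LINC02593 averaged 353.9 CPM and LINC02700 321.4, against 17.31 and 86.28 in cytoplasm. LINC01356 and LINC02972 went the other way there, at 23.15 and 83.54 on chromatin and 171.9 and 196.4 in cytoplasm. In hPSC the members tested had a median log2 change from cytoplasm to chromatin of -0.08.

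**Figure D2:**
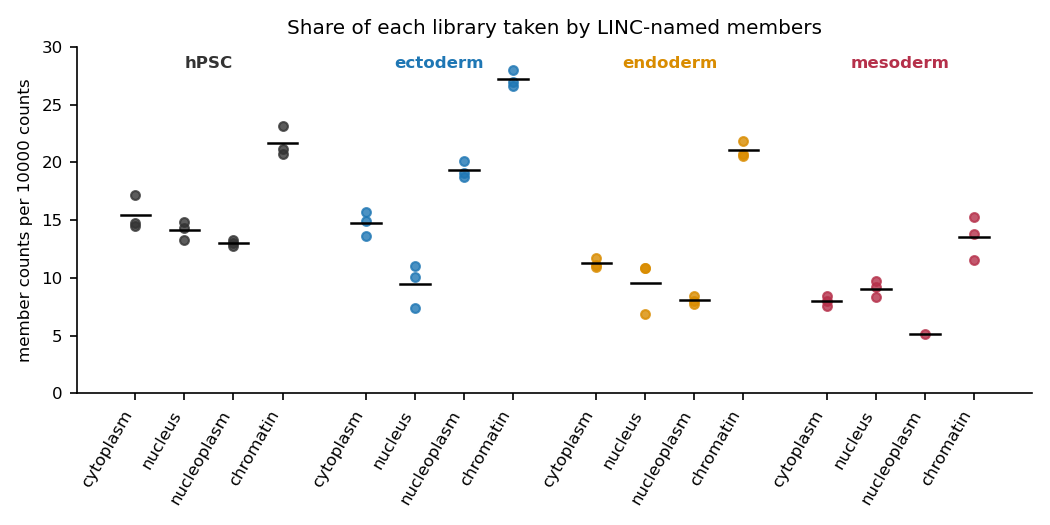
Counts of members per 10000 counts of the library, by cell type and fraction. Each point is 1 library and each black line a group mean. Chromatin lies highest in all 4 cell types, with means from 13.6 in mesoderm to 27.2 in ectoderm.

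Chromatin against cytoplasm asks which members stay with the genome. In hPSC 119 of the 132 listed members passed the filter on low counts, and 64 were called at an adjusted p under 0.05: 38 were higher on chromatin and 26 were lower. Of all genes tested, 63.6% were called, 35.3% higher and 28.2% lower. The fold changes are on TMM-normalised counts and can differ from ratios of CPM. Of 157 ectoderm members tested, 78 were called, 50 toward chromatin and 28 toward cytoplasm (all genes 61.3%, 29.4% and 32% by direction). The endoderm count was 62 of 85, with 42 toward chromatin and 20 toward cytoplasm (all genes 73%, 37.7% and 35.3%), and the mesoderm count was 63 of 98, with 37 and 26 (all genes 66.4%, 33.8% and 32.6%). Scaled to total counts, the ectoderm split was 63 higher and 16 lower. The median log2 change of the members tested, beside that of all genes tested, was 0.86 and 0.05 in endoderm, 0.31 and 0.00 in ectoderm, 0.17 and 0.01 in mesoderm, and -0.08 and 0.09 in hPSC. The share of members called was below that of all genes in hPSC and ectoderm, and within 3 percentage points of it in endoderm and mesoderm. All tallies between fractions, here and below, include members that reached the limit mainly through 1 fraction, such as LINC01001 in endoderm. Calls of such members are a description, and the tallies were not split by this.

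LINC01002 was among the members highest on chromatin. It lies near the end of the short arm of chromosome 19 (198264 to 239440), where sequence is often repeated on other chromosomes, so its reads may be divided between copies. Its hPSC libraries held 65.8, 67.0 and 124.9 CPM on chromatin and 8.52, 11.3 and 11.7 in cytoplasm, and the log2 change was 2.88 (SE 0.243, adjusted p = 4.49e-07). In endoderm they held 240.5, 148.5 and 267.6 CPM on chromatin and 9.10, 9.85 and 13.2 in cytoplasm, a change of 4.52 (SE 0.249, adjusted p = 1.12e-09). The groups did not overlap in either cell type. In mesoderm chromatin 1 library stood apart, with 130.6 CPM beside 41.9 and 33.3. LINC00685, in the pseudoautosomal region of chromosome X, was called higher on chromatin in all 4 cell types, by 4.16 (SE 0.372) in endoderm, 2.37 (0.394) in hPSC, 2.34 in mesoderm and 2.14 (0.167) in ectoderm on the log2 scale.

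Some chromatin-high members were seen in 1 or 2 cell types only. LINC01013 in hPSC held 384.9, 318.0 and 294.2 CPM on chromatin and 56.7, 37.6 and 37.1 in cytoplasm, a log2 change of 2.78 (SE 0.207, adjusted p = 1.37e-07). LINC02593 in endoderm held 342.2, 326.5 and 393.0 CPM on chromatin and 18.4, 15.0 and 18.6 in cytoplasm, a change of 4.52 (SE 0.158, adjusted p = 1.09e-10). For both, every chromatin library lay above every cytoplasm library. In endoderm LINC01001, which lies near the end of the short arm of chromosome 11, had no count in any cytoplasm library and 2.19, 0.760 and 5.87 CPM on chromatin, at least 16.6-fold higher against a floor of 3 counts per library. Most of its 135 counts lay in the chromatin libraries, through which it reached the limit, so this difference is a description. In mesoderm LINC01876 held 15.0, 12.4 and 14.6 CPM on chromatin and 0.326, 0.233 and 0.370 in cytoplasm, a change of 5.29 (SE 0.705, adjusted p = 6.6e-05). The same gene averaged 77.4 CPM on ectoderm chromatin and 48.9 in ectoderm cytoplasm.

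The members lowest on chromatin included LINC01356, which was called lower in all 4 cell types. Its mesoderm total was 90 counts, under the limit, so the change there rests on few counts. In hPSC its cytoplasm libraries held 46.7, 28.7 and 23.5 CPM and its chromatin libraries 4.94, 6.25 and 5.77, a log2 change of -2.69 (SE 0.279, adjusted p = 2.84e-06). In endoderm the cytoplasm libraries held 191.3, 145.0 and 179.2 CPM and the chromatin libraries 25.5, 21.9 and 22.0, a change of -2.72 (SE 0.218, adjusted p = 3.57e-08). No chromatin library reached the lowest cytoplasm library in either. LINC03049 fell by 2.39 (SE 0.387) in hPSC, 1.63 (0.494) in endoderm and 2.00 (0.302) in ectoderm, and LINC01503 fell by 2.67 (0.439) in hPSC and 2.56 (0.411) in ectoderm. In mesoderm LINC01980 held 2.41, 3.91 and 2.67 CPM in cytoplasm and 0.401, 0.0 and 0.0 on chromatin, at least 7.17-fold lower. LINC01980 starts 74852 bases from EOMES, a mesendoderm regulator, and was not listed in endoderm, the only table that lists EOMES.

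Calls in the same direction in all 4 cell types were counted next. Of 39 members tested in all 4, 7 were higher on chromatin in each: LINC00205, LINC00265, LINC00641, LINC00685, LINC01002, LINC01089 and LINC01145. This is 17.9% of them, beside 16.7% of the 10418 genes tested in all 4. Another 4 were lower in each, LINC00847, LINC01356, LINC02893 and LINC03049, which is 10.3% beside 23.1%. Of these, LINC01356 held only 90 counts in mesoderm. The count of lower members was 2 when scaled to total counts, 2 with DESeq2 and 2 with the replicate number in the model. LINC00847 was not called in endoderm without chromatin replicate 3 (adjusted p = 0.0531). There were 4 members called in opposite directions in different cell types (10.3%, beside 7.98% of all genes): LINC00649, LINC00667, LINC01311 and LINC01535. LINC01311 was lower in mesoderm alone, a call lost on TPM (-0.493, adjusted p = 0.12). LINC01535 was lower on chromatin in endoderm, hPSC and ectoderm (log2 changes of -2.16, -1.05 and -0.943) and higher in mesoderm (0.796). These members were named after their values were seen.

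**Figure D3:**
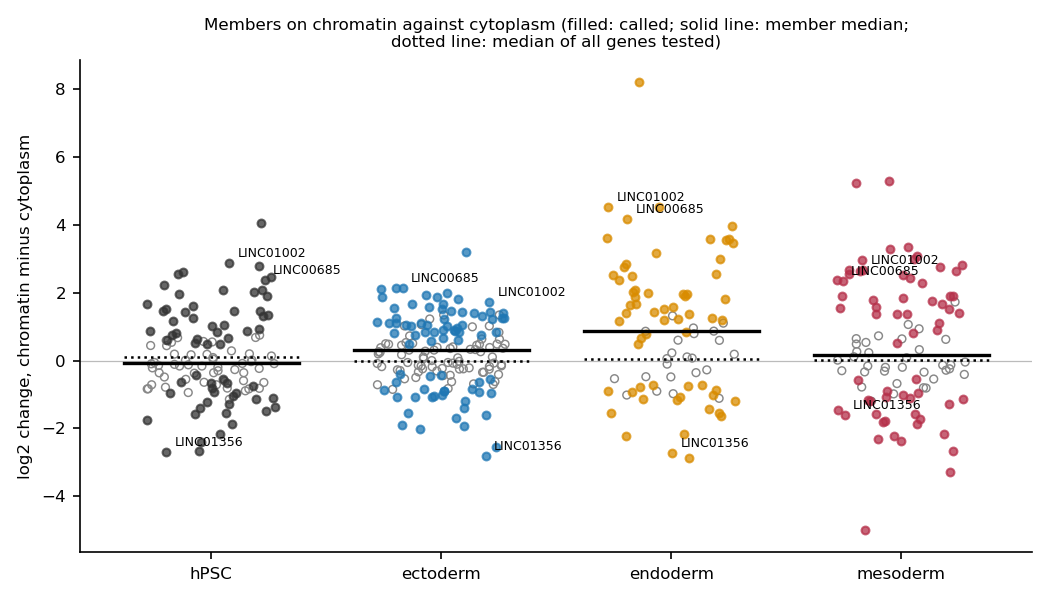
Log2 change from cytoplasm to chromatin of each member tested, by cell type. Filled points were called, open points were not, solid lines give the median of members and dotted lines that of all genes tested, and points of genes with no count in a group are fitted values and not bounds. LINC01356 lies below 0 and LINC01002 and LINC00685 above 0 in all 4 cell types, and the member median is farthest from that of all genes in endoderm, at 0.86. The mesoderm point of LINC01356 rests on a total of 90 counts.

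Chromatin against nucleoplasm separates bound from soluble nuclear RNA. In hPSC 23 of 119 members were called, 22 higher on chromatin and 1 lower, where 30.6% of all genes were called, 17.3% higher and 13.4% lower. Scaled to total counts the members split into 35 higher and 0 lower. Without nucleoplasm replicate 1 the count fell to 15, and without nucleoplasm replicate 3 to 11. Endoderm gave 32 calls among 85 members, 26 higher and 6 lower (all genes 53.7%, 23% higher and 30.7% lower), and 42 higher and 0 lower when scaled to total counts. Ectoderm gave 51 calls among 157, with 27 higher and 24 lower (all genes 44.4%, 18.6% higher and 25.8% lower), with 40 higher and 8 lower when scaled to total counts and 32 called without chromatin replicate 1. The members' median log2 change, beside that of all genes, was 0.42 and -0.12 in endoderm, 0.36 and 0.00 in hPSC, and 0.01 and -0.09 in ectoderm. Genes named as antisense (-AS and a number) were called higher in 19.3% and lower in 2.24% in hPSC. Those named as divergent (-DT) gave 9.24% and 0%, and all lncRNA-type genes, which include members, 16% and 2.57%. In endoderm these lists gave, in that order, 27.3% and 3.98%, 4.76% and 8.33%, and 28.1% and 6.46%. In ectoderm they gave 17.4% and 8.39%, 10.2% and 13.8%, and 22.7% and 7.72%. Mesoderm was not tested, since 1 nucleoplasm library gives no spread.

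This comparison and the one against cytoplasm share their chromatin libraries. LINC00685 rose by 2.33 (SE 0.393, adjusted p = 0.00102) in hPSC, with 4.62, 7.13 and 12.6 CPM on chromatin and 1.36, 1.71 and 0.996 in nucleoplasm. LINC01013 rose by 1.80 (SE 0.198) and LINC01719 by 1.62 (SE 0.304) in hPSC. In endoderm LINC02593 rose by 2.60 (SE 0.145, adjusted p = 1.01e-08), from 43.2, 38.8 and 35.4 CPM in nucleoplasm. In ectoderm LINC00640 stood at 4.74 CPM ± 0.820 on chromatin and 1.18 ± 0.167 in nucleoplasm (SD, n = 3 each), 1.71 on the log2 scale (SE 0.392, adjusted p = 0.00336). LINC02820 fell by 1.58 (SE 0.326, adjusted p = 0.00171) in ectoderm, where its TPM gave -0.384 (adjusted p = 0.284). The 1 hPSC member that fell, LINC01278 (-0.475, SE 0.163, adjusted p = 0.0417), had the opposite sign on TPM and was not called when any 1 of the 6 libraries was left out (adjusted p from 0.0614 to 0.126).

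Cytoplasm against nucleus gave splits that depended on the cell type. In hPSC 64 of 119 members were called, 30 higher in cytoplasm and 34 lower (all genes 65.6%, 35.2% higher and 30.4% lower). Mesoderm gave 61 calls among 98, with 33 higher and 28 lower (all genes 63.3%, 31.9% and 31.4%). Endoderm gave 41 calls among 85, with 18 higher and 23 lower (all genes 69.9%, 34.4% and 35.6%), but 36 higher and 14 lower when scaled to total counts and 25 and 18 with upper-quartile scaling. Ectoderm gave 59 calls among 157, 57 higher in cytoplasm and 2 lower, where 27.5% of all genes were called higher and 26.8% lower (54.3% in all). Scaled to total counts, the ectoderm split was 77 higher and 1 lower. The skew was not particular to members. Of ectoderm antisense-named genes 24.5% were higher and 4.36% lower, of divergent-named genes 31.7% and 2.4%, and of lncRNA-type genes 29.1% and 2.88%. The ectoderm nucleus libraries are those in which ACTB, RPLP0 and TUBA1B were higher than in cytoplasm (RPLP0 averaged 5375 and 4227 CPM), and the part of this in the split was not tested.

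In ectoderm LINC01572 held 27.3 CPM ± 3.12 in cytoplasm and 5.74 ± 3.93 in the nucleus (SD, n = 3 each), a log2 change of 2.08 (SE 0.302, adjusted p = 9.26e-05). LINC01473 rose by 2.16 (SE 0.344) there. Ectoderm nucleus replicate 2 was the lowest of the 3 for several members, with 0.751 CPM of LINC01473 beside 4.01 and 1.72, and 2.07 CPM of LINC01355 beside 17.7 and 15.8. LINC00685 was lower in cytoplasm than in the nucleus in all 4 cell types, by 3.57 (SE 0.370) in endoderm, 2.48 (0.395) in hPSC, 1.89 (0.168) in ectoderm and 1.74 in mesoderm on the log2 scale. LINC00467, which codes for a small mitochondrial protein, was higher in cytoplasm in all 4, by 2.21 in mesoderm, 1.45 in hPSC, 0.907 in endoderm and 0.670 in ectoderm. Its mesoderm total was 66 counts, under the limit, so the change there rests on few counts. LINC00685 was the 1 member of 39 called lower in each cell type and LINC00467 the 1 called higher. This is 2.56% each, beside 13.5% and 10.1% of all genes. The count of higher members was 4 (10.3%, beside 13.2% of all genes) when scaled to total counts, 3 (7.69%) with upper-quartile scaling and 2 (5.13%) with DESeq2, so it depended on the scaling.

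In mesoderm LINC02381 held 4.88, 7.76 and 6.81 CPM in cytoplasm and 0.443, 0.418 and 0.703 in the nucleus. Most of its 359 mesoderm counts lay in the cytoplasm libraries, through which it reached the limit, so no test is given. In endoderm LINC02593 held 111.6, 180.5 and 154.8 CPM in the nucleus against 18.4, 15.0 and 18.6 in cytoplasm and fell by 3.798 (SE 0.153, adjusted p = 2.61e-10). LINC01089 held 33.3, 66.9 and 47.7 CPM in the endoderm nucleus and 7.84, 11.3 and 11.97 in cytoplasm, and fell by 2.93 (SE 0.201, adjusted p = 9e-09). In each of these members the groups did not overlap.

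Changes between cell types were tested for the members listed in all 4 tables, 46 in cytoplasm and 47 on chromatin. A member seen in few tables had to differ between cell types and was not tested. The 3 lineages share the hPSC libraries. Of the 47, 37 reached 100 counts in every table. The others held fewer in at least 1 table and were members through the tables in which they were higher, so their differences between such tables are a description. Among the 37 in cytoplasm, ectoderm gave 29 calls against hPSC (19 higher, 10 lower), endoderm 23 (7 higher, 16 lower) and mesoderm 23 (16 higher, 7 lower). Over all 46 the counts were 35 (24 higher, 11 lower), 30 (12 higher, 18 lower) and 29 (19 higher, 10 lower). Of all genes, 76.1% were called in ectoderm (39.1% higher, 37% lower), 59.7% in endoderm (27.5%, 32.2%) and 68.1% in mesoderm (35%, 33.1%). Among the 37 on chromatin, ectoderm gave 26 (18 higher, 8 lower), endoderm 22 (13 higher, 9 lower) and mesoderm 19 (11 higher, 8 lower). Over all 47 the counts were 33 (24 higher, 9 lower), 30 (19 higher, 11 lower) and 26 (14 higher, 12 lower). The all-gene shares were 62.5% (32.4% higher, 30.1% lower), 61.9% (31.1%, 30.8%) and 54.3% (28.6%, 25.8%). Scaled to total counts, endoderm gave, over all members tested, 13 higher and 12 lower in cytoplasm and 14 higher and 13 lower on chromatin. The median log2 change of the 37 in cytoplasm was 0.46 in ectoderm, 0.35 in mesoderm and -0.49 in endoderm, beside 0.04, 0.01 and -0.05 for all genes.

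LINC02972, the highest member of hPSC, was lower in each derived cell type. Its cytoplasm libraries held 527.3, 509.1 and 498.0 CPM in hPSC. The ectoderm libraries held 45.9, 46.7 and 48.3, the endoderm libraries 126.7, 208.2 and 254.1, and the mesoderm libraries 74.0, 65.1 and 74.4. No cytoplasm library of a derived cell type reached one of hPSC. The log2 changes in that order were -3.50 (SE 0.202, adjusted p = 7.62e-10), -1.60 (SE 0.186, adjusted p = 4.35e-06) and -2.89 (SE 0.196, adjusted p = 7.98e-09). Counted over annotated isoforms only, the endoderm change was 0.033 (adjusted p = 0.907). On chromatin LINC02972 fell by 3.401, 2.24 and 3.56 in the same order, with -0.162 (adjusted p = 0.677) in endoderm over annotated isoforms only.

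LINC01356 moved in opposite directions. Its cytoplasm libraries held 2.31, 2.05 and 3.03 CPM in ectoderm and 1.17, 1.98 and 1.56 in mesoderm, all below the 23.5 to 46.7 CPM of hPSC, and 145.0 to 191.3 CPM in endoderm, all above. The changes were -3.77 (SE 0.263, adjusted p = 5.63e-09) in ectoderm and 2.18 (SE 0.210, adjusted p = 5.84e-07) in endoderm. In mesoderm its total was 90 counts, under the limit, so no test is given. LINC01224, with 39.6 CPM ± 2.39 in hPSC cytoplasm, fell by 1.86 (SE 0.143) in ectoderm and by 1.75 (SE 0.144) in mesoderm. LINC00235 fell by 2.98 (SE 0.355, adjusted p = 1.97e-06) in ectoderm cytoplasm, where the TPM gave -0.156 (adjusted p = 0.333).

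In ectoderm against hPSC, LINC00910, LINC00649 and LINC01012 rose in both fractions. LINC00910 held 24.0, 18.8 and 23.6 CPM in ectoderm cytoplasm and 0.600, 0.401 and 0.531 in hPSC cytoplasm, a log2 change of 5.39 (SE 0.276, adjusted p = 2.23e-10). On chromatin it held 77.3, 72.0 and 82.8 CPM in ectoderm and 1.84, 1.67 and 3.27 in hPSC, a change of 5.17 (SE 0.321), which was 1.34 (adjusted p = 0.161) over annotated isoforms only. LINC00649 held 74.8, 63.7 and 69.8 CPM on ectoderm chromatin and 2.03, 1.96 and 1.40 on hPSC chromatin, a change of 5.32 (SE 0.337, adjusted p = 2.51e-08). Every ectoderm library lay above every hPSC library for both genes. LINC03006, annotated as a transcribed pseudogene, rose by 5.41 (0.373) in cytoplasm.

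LINC01012, at the edge of the histone gene cluster of chromosome 6, rose in all 3 lineages in both fractions. Its cytoplasm libraries held 0.240, 0.401 and 1.06 CPM in hPSC, 11.6, 11.8 and 11.7 in ectoderm and 7.16, 7.0 and 6.29 in mesoderm, with log2 changes of 4.18 (SE 0.305) and 3.41 (SE 0.316). Endoderm cytoplasm ranged from 1.36 to 2.01 CPM, above every hPSC library, and the change was 1.15 (SE 0.368, adjusted p = 0.0147). Its rise on chromatin was 5.00 (ectoderm), 3.39 (mesoderm) and 2.81 (endoderm). LINC01473 and LINC03038 were under the limit in hPSC and are given as totals only. LINC01473 held 91 counts in hPSC, 1851 in ectoderm, 177 in mesoderm and 53 in endoderm, and LINC03038 held 22 in hPSC and 462, 250 and 124 in endoderm, ectoderm and mesoderm.

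LINC00511, a lncRNA studied in tumours, held 9.26, 8.64 and 7.40 CPM in endoderm cytoplasm and 1.08, 0.668 and 0.597 in hPSC cytoplasm. Its hPSC total of 89 counts was under the limit, so no test is given. In endoderm, LINC00205, which starts 152 bases from POFUT2 in the divergent direction, rose by 1.14 (SE 0.119) in cytoplasm and by 2.39 (SE 0.194) on chromatin. LINC01138, in a repeated region of chromosome 1, held 4.32, 5.01 and 3.85 CPM in hPSC cytoplasm and 0.0545, 0.243 and 0.251 in endoderm cytoplasm, where its table total of 21 counts was likewise under the limit. LINC00662 fell by 1.85 (SE 0.192) in cytoplasm and 2.92 (0.372) on chromatin, and LINC00869 by 2.33 (0.240) and 2.17 (0.403). Reads of members in repeated regions may be divided between copies.

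In mesoderm, LINC01128 held 33.7, 34.0 and 30.6 CPM in cytoplasm and 6.12, 6.88 and 6.24 in hPSC cytoplasm, a log2 change of 2.30 (SE 0.124, adjusted p = 7.01e-10). LINC00467, with 66 counts in the mesoderm table, held 7.56, 6.02 and 5.84 CPM in hPSC cytoplasm and 0.781, 1.58 and 0.666 in mesoderm cytoplasm, given without a test for the same reason. LINC00665 fell on chromatin by 1.45 (SE 0.144), while its TPM gave -0.379 (adjusted p = 0.131). LINC01535 rose on chromatin by 2.63 (SE 0.247), where its TPM gave -0.093 (adjusted p = 0.733).

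**Figure D4:**
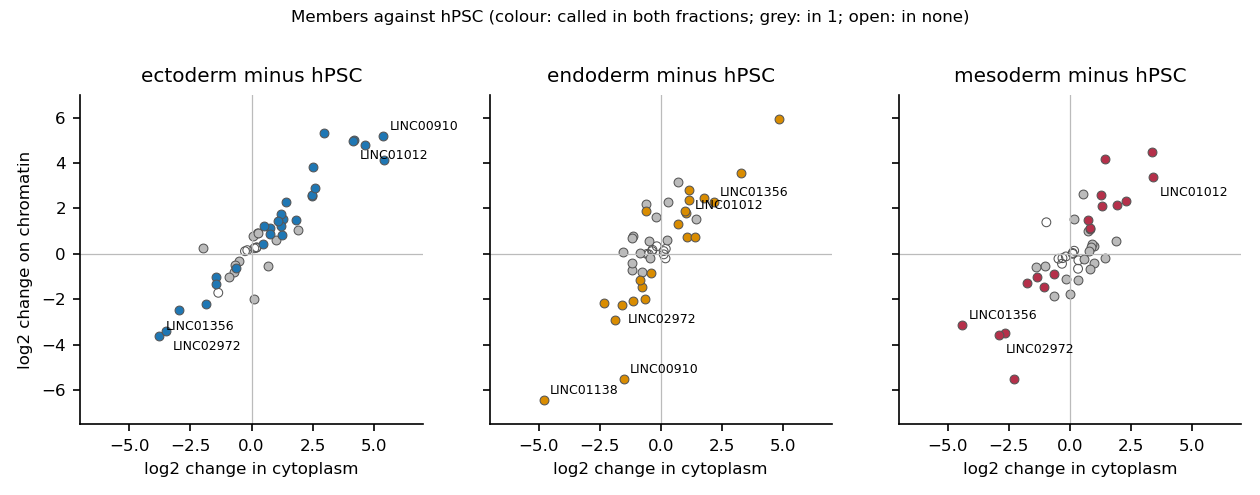
Log2 change against hPSC of members tested in both fractions, in cytoplasm (horizontal) and on chromatin (vertical), for each derived cell type. Colour marks members called in both fractions, grey in 1 and open in neither. LINC02972 lies below 0 on both axes in each panel, and LINC01356 lies at lower left in ectoderm and mesoderm and at upper right in endoderm. Members under 100 counts in a table are drawn too, among them LINC01356 in mesoderm and LINC01138 in endoderm. Their positions and colours are a description.

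Whether the fraction balance itself changed was tested as the chromatin against cytoplasm change of a lineage minus that of hPSC, for 47 members. In ectoderm 8 were called, 6 toward chromatin and 2 toward cytoplasm (all genes 22.9%, 11.3% and 11.6% by direction), with 3 and 3 when scaled to total counts, 5 and 3 with upper-quartile scaling, and 5 called without hPSC chromatin replicate 1. In endoderm 16 were called, 13 toward chromatin and 3 toward cytoplasm (all genes 38.5%, 18.1% and 20.4%), with 6 and 9 when scaled to total counts. In mesoderm 9 were called, 5 toward chromatin and 4 toward cytoplasm (all genes 21.4%, 11.9% and 9.47%), with 3 and 8 when scaled to total counts and 4 and 8 with upper-quartile scaling. Of these calls, 8, 14 and 8 were among the 37 members with 100 counts in every table. The direction of the counts in endoderm and mesoderm turned with the scaling. Scaling to total counts moved the median of all genes by -0.11, -0.42 and -0.24 in these tests, and by 0.70 in endoderm cytoplasm against nucleus, its largest shift in the 20 comparisons.

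LINC01004, which starts 1135 bases from KMT2E in the divergent direction, shifted toward chromatin in endoderm and mesoderm. It held 2.79, 2.33 and 3.12 CPM on hPSC chromatin and 3.48, 1.94 and 2.99 in hPSC cytoplasm, which overlapped. In mesoderm it held 42.3, 43.6 and 48.2 CPM on chromatin and 8.14, 7.93 and 6.81 in cytoplasm, and in endoderm 8.85, 8.99 and 13.3 against 2.12, 1.34 and 2.76. The difference of log2 changes was 2.78 (SE 0.339, adjusted p = 8.96e-06) in mesoderm and 2.74 (SE 0.358, adjusted p = 1.03e-05) in endoderm. In ectoderm it was 1.33 (adjusted p = 0.00512).

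LINC00649 shifted toward chromatin in ectoderm by 2.39 (SE 0.445, adjusted p = 0.000383), with cytoplasm at 37.2, 36.9 and 37.5 CPM there and 7.92, 3.88 and 2.92 in hPSC. LINC00888 shifted toward cytoplasm in mesoderm by 1.75 on the log2 scale (value -1.75, SE 0.290, adjusted p = 0.000241): its mesoderm libraries held 11.7, 14.2 and 11.9 CPM in cytoplasm and 3.21, 1.37 and 3.85 on chromatin, and its hPSC libraries 11.2, 12.9 and 12.6 and 10.3, 9.31 and 11.7. Against hPSC it did not pass the test in cytoplasm (-0.004, SE 0.147, adjusted p = 0.98) and fell by 1.78 on chromatin (SE 0.277, adjusted p = 0.000133), which was -0.798 (adjusted p = 0.0722) over annotated isoforms only. LINC01719 shifted toward cytoplasm in ectoderm (-2.12, SE 0.461, adjusted p = 0.00163), with chromatin at 13.7 CPM ± 3.09 in hPSC and 3.26 ± 0.263 in ectoderm (SD, n = 3 each).

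**Figure D5:**
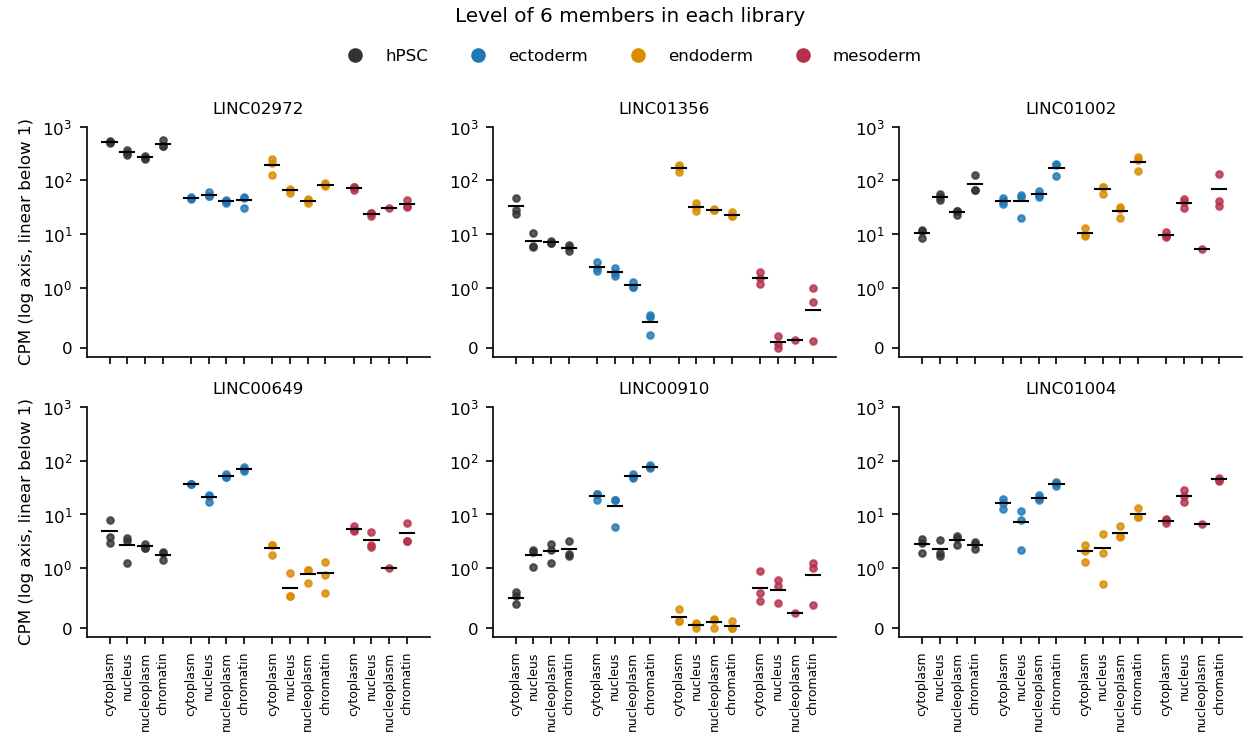
CPM of 6 members in each library, on a log axis that is linear below 1, by cell type (colour) and fraction. Points are libraries and black lines group means. LINC01356 has its highest group mean in cytoplasm in each cell type, and LINC01004 on mesoderm chromatin (42.3 to 48.2 CPM) lies above its hPSC libraries.

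Many member transcripts were isoforms outside the annotation. Isoforms with no Ensembl transcript ID made up 69.3% of the 531 member transcripts of ectoderm and held 63.4% of member counts there. In hPSC they were 47.1% of 261 with 61.4% of counts, in endoderm 57.2% of 201 with 47.1%, and in mesoderm 44.2% of 197 with 35.04%. The members with the most isoforms were LINC01224 in hPSC with 12, LINC01572 in ectoderm with 20, LINC00458 in endoderm with 11 and LINC00667 in mesoderm with 12. In hPSC 46 members had no annotated isoform listed, in ectoderm 74, in endoderm 41 and in mesoderm 33.

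Antisense-named and divergent-named genes also served as comparators in chromatin against cytoplasm. In endoderm the median was 0.86 for members, 0.70 for antisense-named and -0.01 for divergent-named genes. In ectoderm these medians were 0.31, 0.42 and 0.10, in mesoderm 0.17, 0.38 and -0.47, and in hPSC -0.08, 0.06 and -0.19. All lncRNA-type genes, which include members, had medians of 0.96, 0.54, 0.61 and 0.20 in the same order. These differences between lists were not tested.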

How the data were processed

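Library preparation used an NEBNext Ultra kit, per the labels. STAR, RSEM and the build hg38 are named, without roles or versions, per the submitters' processing notes. The authors deposited, for each cell type's own assembly, whole-number counts per transcript and library, which may be rounded estimates, and the authors' TPM. No deposited file states whether counting used strand. A column that matched no sample was not used (1 column).

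Counts were summed over the transcripts of a gene and scaled to CPM by library totals. Tests were run in R 4.3.3 with the quasi-likelihood F test of edgeR 4.0.16, after filterByExpr (min.count 10) and TMM scaling, with Benjamini-Hochberg adjustment over all genes tested. Every library of a cell type entered its fit, and mesoderm used a smallest group of 1. Fits between cell types held the compared fractions of all 4 cell types and genes listed in all 4 tables. For a group with at most 3 counts in each library, a bound against 3 counts per library is given, which covers counting error only. LINC00680, LINC01145, LINC03006 and LINC03025 each join 2 Ensembl IDs. The edgeR script was tested on simulated data. None of 45 replicate pairs agreed within sampling noise (chi-squared per degree of freedom at least 4.18).

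The members and gene lists were chosen with earlier results of these data known. Named in each comparison were up to 5 called members that rose most and up to 5 that fell most, with a mean of at least 2 CPM in the higher group and no overlap (for differences of changes, up to 2 each way without that condition), the 10 highest members of each table, and members with a known role. Alternatives were DESeq2 1.42.0, other scalings, no filter, limma 3.58.1 on log2(TPM + 1) of the deposited TPM, annotated isoforms only, the replicate number as a block, the combined assembly and leaving out each library.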

Additional observations from a re-analysis of the deposited data

Results flagged for a closer look

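These members differed from hPSC in their chromatin against cytoplasm change by the test of that difference itself (edgeR, adjusted p under 0.05). Toward chromatin were LINC00649 (2.39) and LINC00638 (2.27) in ectoderm, LINC01004 (2.74) and LINC01089 (2.44) in endoderm, and LINC02595 (5.15) and LINC01004 (2.78) in mesoderm. Toward cytoplasm were LINC02987 (-1.21) and LINC01719 (-2.12) in ectoderm, LINC02987 (-1.41) and LINC00910 (-4.10) in endoderm, and LINC00960 (-1.55) and LINC00888 (-1.75) in mesoderm. LINC02595 in hPSC held 0.48, 0.20 and 0.0 CPM in cytoplasm, and LINC00910 in endoderm held at most 0.327 CPM in any library. Their table totals there were 61 and 17 counts, under the limit, so both differences rest on few counts and are a description. LINC02595 is a member through mesoderm (238 counts), where it was higher, and ectoderm (149). LINC00910 is a member through ectoderm (6740) and hPSC (275). LINC02595 was not called without hPSC cytoplasm replicate 1 (4.29, adjusted p = 0.143) or replicate 2 (5.06, adjusted p = 0.0783). LINC02595 on mesoderm chromatin held 14.4, 5.70 and 6.16 CPM. LINC01089 in endoderm was lost over annotated isoforms only (0.757, adjusted p = 0.216), and LINC00910 as well (-1.83, adjusted p = 0.372). LINC00910 was also not called without endoderm cytoplasm replicate 1 (-3.48, adjusted p = 0.0509). LINC00960 in mesoderm was lost on TPM (-0.68, adjusted p = 0.242), over annotated isoforms (-1.52, adjusted p = 0.239) and when any 1 of 7 libraries was left out (adjusted p from 0.0579 to 0.105). On TPM, LINC00638 (0.771, adjusted p = 0.118) and LINC02987 (-0.867, adjusted p = 0.0922) in ectoderm were lost too.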

How the results depend on the processing

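Over 20 comparisons, the count of called members stayed within 1.5 times of that reported under upper-quartile scaling, DESeq2, no filter, the combined assembly (ectoderm) and members with 500 or more counts. Scaling to total counts gave 35 in hPSC chromatin against nucleoplasm, and limma on TPM gave 72 in hPSC and 78 in ectoderm there. Over annotated isoforms only, fewer genes could be tested, and the counts were 35, 9 and 34 in hPSC (cytoplasm against nucleus, chromatin against nucleoplasm, chromatin against cytoplasm), 14, 13 and 32 in ectoderm, 19, 17 and 31 in endoderm, and 35 and 26 in mesoderm (no nucleoplasm test). Against hPSC they were 14, 10 and 15 in cytoplasm, 10, 10 and 11 on chromatin and 4, 6 and 3 for the differences of changes (ectoderm, endoderm, mesoderm). Asking for at least a 2-fold change as well gave 40, 11 and 42 in hPSC, 37, 20 and 50 in ectoderm, 19 in endoderm chromatin against nucleoplasm, 18 in mesoderm against hPSC cytoplasm and 5 in the ectoderm difference of changes. A minimum of 500 counts left 116 members.

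Leaving out 1 library gave 53 to 60, 63 to 68, 55 to 63 and 54 to 64 called members for chromatin against cytoplasm in hPSC, ectoderm, endoderm and mesoderm, 51 to 65, 48 to 59, 34 to 44 and 47 to 54 for cytoplasm against nucleus, and 11 to 23, 32 to 42 and 22 to 27 for chromatin against nucleoplasm in hPSC, ectoderm and endoderm. Against hPSC the ranges were 33 to 37, 24 to 31 and 25 to 31 in cytoplasm, 26 to 33, 23 to 29 and 23 to 28 on chromatin, and 5 to 10, 12 to 17 and 6 to 10 for the differences of changes.

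In no comparison did every same-numbered pair of libraries correlate above 0.1 in its deviations (correlations from -0.388 to 0.419), so the numbers were not taken as pairing. With the replicate block the called members were 63, 74, 61 and 57 for chromatin against cytoplasm, 60, 55, 40 and 52 for cytoplasm against nucleus, 21, 50 and 29 for chromatin against nucleoplasm, 34, 28 and 28 in cytoplasm against hPSC, 31, 27 and 23 on chromatin, and 8, 16 and 8 for the differences. The mesoderm block left out the nucleoplasm library.

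Of 1165 values of named members under settings on all libraries, 1122 kept direction and call, 39 kept direction only and 4 reversed: LINC01278 in hPSC chromatin against nucleoplasm on TPM (0.043), LINC02972 in endoderm cytoplasm (0.033) and LINC00960 on endoderm chromatin (-1.42, adjusted p = 0.164) over annotated isoforms, and LINC01535 on mesoderm chromatin on TPM (-0.093). Of 1110 values with 1 library left out, 45 lost the call and 0 reversed. The counts of members alike in all 4 cell types were recomputed with settings chosen after seeing the data. The number higher on chromatin in all 4 ran from 2 to 12 and the number lower from 0 to 4. For cytoplasm against nucleus the number higher ran from 1 to 4 and the number lower from 0 to 1. Depth limits the low members, and 40 of the 132 listed in hPSC averaged under 1 CPM.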
